A study of Glycine max with 32 samples.

Results

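Leaf levels of 6 genes of the soybean flowering pathway were followed, given with their Wm82.a4.v1 identifiers, and all 6 were found among the 52875 genes of the count table. They were the maturity genes E1 (Glyma.06G207800), E1La (Glyma.04G156400) and E1Lb (Glyma.04G143300), and the genes J (Glyma.04G050200), LUX1 (Glyma.12G060200) and LUX2 (Glyma.11G136600). They were chosen by name. No measured value entered the rule for the choice, but earlier results of these data were known when it was made.

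E1 is a legume-specific B3-like transcriptional repressor that delays flowering in long days by holding down FLOWERING LOCUS T genes, the source of the mobile flowering signal, and E1La and E1Lb are its paralogs. J is the soybean counterpart of Arabidopsis EARLY FLOWERING 3, a scaffold of the evening complex. LUX1 and LUX2 are counterparts of LUX ARRHYTHMO, the DNA-binding member of that complex, which acts at dusk and in the night and, in soybean, represses E1 family genes.

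RNA was sequenced from leaves of WT soybean of cultivar Maverick and of VPZ-34A, 1 transformation event in this cultivar that overexpresses the Arabidopsis genes AtVDE, AtPsbS and AtZEP. Both lines grew side by side in 8 field rings, of which 4 had ambient air (a[CO2], 410 µmol mol−1) and 4 were fumigated (e[CO2], 600 µmol mol−1). In the field, an ambient and a fumigated plot were paired in each of 4 blocks, but the text used here does not name which rings form a pair, and the CO2 comparisons treat the rings as unpaired. Leaves were taken 31 days after sowing, in the vegetative stages V4–V5, and 86 days after sowing, in the seed-filling stages R5–R6, which the sample labels call R6. This gave 8 groups of 4 libraries, 1 library per ring, and 32 libraries in all. Sampling was in mid-morning at both stages, so that dusk, when the evening complex is most active, was not measured. Stage, calendar date and the leaf sampled changed together and cannot be told apart.

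Total counts ranged from 16091207 to 63132399 per library (median 20437366), and a floor of 3 counts stood at 0.0417 to 0.196 CPM (counts relative to library size, scaled by TMM). Floors cover counting error only. As a check of the tissue, 7 native soybean genes for the xanthophyll cycle enzymes and PsbS were detected in every library, the lowest at 1.31 CPM. Their summed level was 5428 to 8564 CPM at V4–V5 and 3171 to 5324 CPM at R5–R6, so that it moved with stage, and its part in the stage results was not tested. In bulk leaf RNA, fewer cells that express a gene and less RNA per cell cannot be told apart.

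The first comparison asked how the leaf levels of the 6 genes differed between the vegetative and the seed-filling stage. All E1 family genes fell, each at least by a log2 fold change (log2FC) of 1.95, whereas J and LUX1 rose and LUX2 fell slightly. With the quasi-likelihood test of edgeR, 6 of 6 members passed an adjusted p of 0.05. The background was high, because 75.2% of the 35639 genes tested passed too (37.5% higher and 37.7% lower at R5–R6). A call alone therefore says little about these genes, and 3 of 6 members passed with an absolute log2FC over 1, against 29.2% of all genes.

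**Figure D1:**
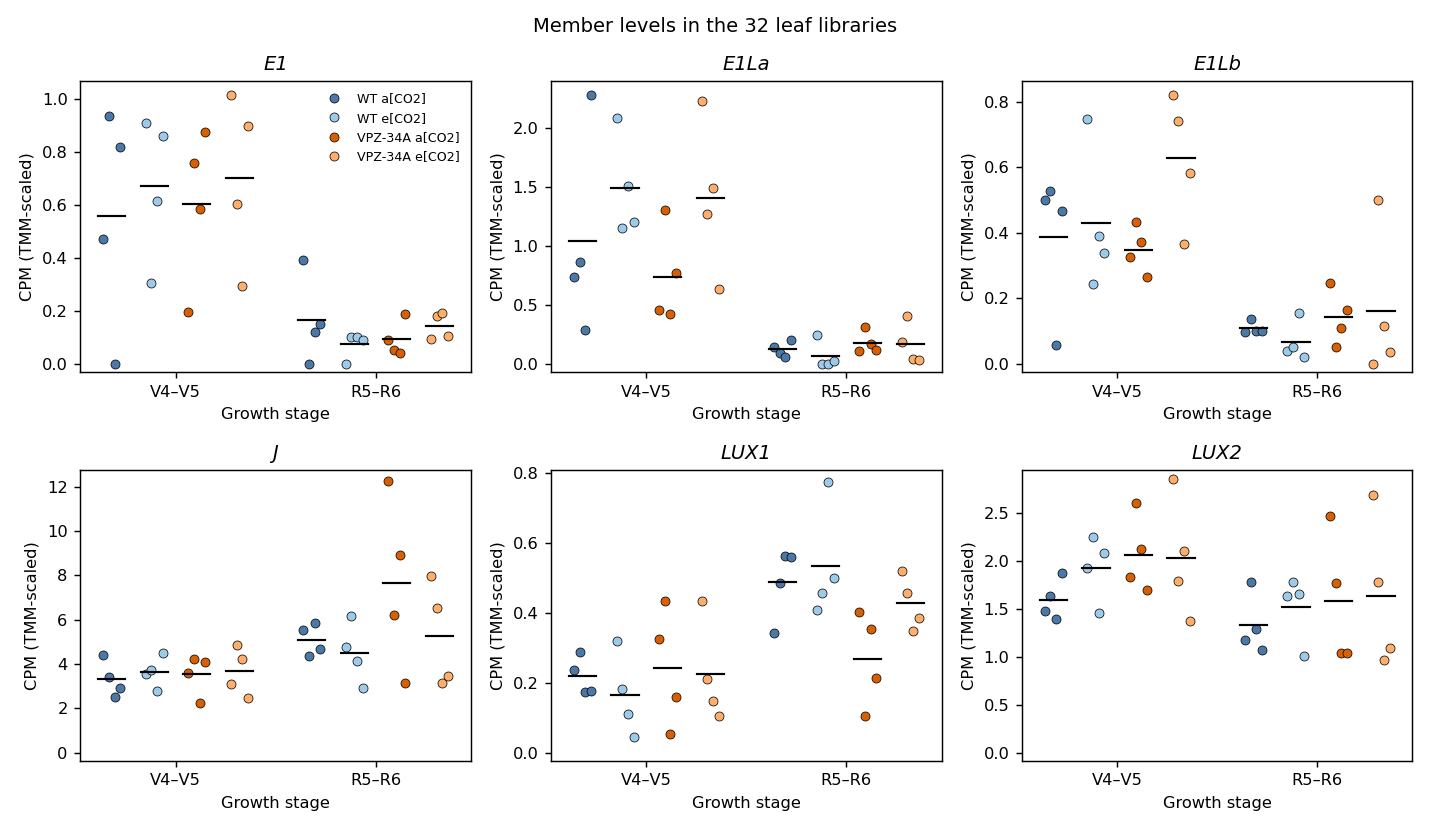
TMM-scaled CPM of each gene (vertical axis, scale differing between panels) in the 32 libraries, grouped by stage on the horizontal axis and coloured by line and CO2 level, with a bar at the mean of each group of 4. E1 family points sit low at R5–R6, with E1 at 0 to 0.392 CPM, while J reaches 12.3 CPM in a VPZ-34A library at R5–R6.

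E1 had 0 to 1.02 CPM (median 0.688) in the 16 libraries at V4–V5 and 0 to 0.392 CPM (median 0.102) in the 16 at R5–R6. The stages overlapped, but 12 of 16 V4–V5 libraries were above the highest R5–R6 library. The mean was 0.634 ± 0.304 CPM (SD, n = 16) and 0.119 ± 0.0938 CPM (SD, n = 16), and the fitted log2FC was −2.48 (SE 0.368, edgeR adjusted p = 6.98e-07). These levels rested on few counts, with 251 in total at V4–V5 against 51 at R5–R6, where 11 of 16 libraries had no more than 3.

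E1La, which had the largest fitted fall of the 3, had 0.291 to 2.28 CPM (median 1.18) at V4–V5 and 0 to 0.411 CPM (median 0.115) at R5–R6. All but 1 of the V4–V5 libraries, 15 of 16, lay above the highest R5–R6 library. Its mean fell from 1.17 ± 0.633 to 0.135 ± 0.117 CPM (SD, n = 16 each), a log2FC of −3.17 (SE 0.362, edgeR adjusted p = 6.25e-09). Among all genes tested, 5% had a lower stage log2FC than E1La, against 6.93% for E1. E1La totalled 430 counts at V4–V5 and 59 at R5–R6, where 9 of 16 libraries had no more than 3. Over rings, the log2 ratio of E1La to E1Lb changed by −1.225 with stage (two-sided exact permutation within rings, p = 0.055). The E1La percentage of family counts changed by −18.12 points (exact permutation p = 0.086). A larger fall of E1La than of its paralogs was thus not established.

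E1Lb showed the same direction with more overlap. It had 0.0581 to 0.823 CPM (median 0.413) at V4–V5 and 0 to 0.502 CPM (median 0.101) at R5–R6, and 6 of 16 V4–V5 libraries were above the highest R5–R6 library. E1Lb totalled 178 counts at V4–V5 and 54 at R5–R6, where 11 of 16 libraries had no more than 3. Its log2FC was −1.95 (SE 0.340, edgeR adjusted p = 8.70e-06), and 9.14% of genes had a lower one. E1La and E1Lb lie 10438862 bp apart on chromosome 4 and may share reads, because reads with several alignments were split between genes. Their values were not whole in 6 libraries each, against 0 libraries for E1. Summed over the 3 genes, which no split between copies affects, the level fell from 2.25 ± 0.976 to 0.375 ± 0.234 CPM (SD, n = 16 each), with a log2FC of −2.63 (SE 0.256).

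J, by contrast, was higher at R5–R6. It had 2.23 to 4.87 CPM (median 3.56) at V4–V5 and 2.92 to 12.3 CPM (median 5.16) at R5–R6. In 8 of 16 R5–R6 libraries J exceeded every V4–V5 library, and the others overlapped. The log2FC was 0.63 (SE 0.165, edgeR adjusted p = 0.00111), and 19.2% of all genes rose more.

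LUX1 and LUX2 moved in opposite directions. LUX1 had 0.0453 to 0.436 CPM (median 0.179) at V4–V5 and 0.104 to 0.773 CPM (median 0.432) at R5–R6, a log2FC of 0.98 (SE 0.241, edgeR adjusted p = 0.000616). At V4–V5, 8 of 16 libraries had no more than 3 LUX1 counts, against 1 at R5–R6. LUX2 had 1.38 to 2.86 CPM (median 1.85) at V4–V5 and 0.968 to 2.69 CPM (median 1.46) at R5–R6, with 8 of 16 R5–R6 libraries below the lowest V4–V5 library. Its log2FC was −0.34 (SE 0.153, edgeR adjusted p = 0.0459), and this call was lost without the filter on low counts (adjusted p = 0.0548) and without any 1 of rings 2, 4, 5, 6, 7 and 8 (adjusted p up to 0.147).

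Because libraries of a ring share a field plot, each gene was also compared over the 8 ring means of log2 CPM. E1, E1La and E1Lb were lower at R5–R6 in 8 of 8 rings each (two-sided exact permutation test within rings, p = 0.0078, the smallest it can give). J was higher in 7 of 8 rings (exact permutation p = 0.023), LUX1 in 7 of 8 (p = 0.031), and LUX2 was lower in 7 of 8 (p = 0.016). The exceptions were ring 8 for J, where the ratio of R5–R6 to V4–V5 was 0.913, ring 2 for LUX1 (0.816) and ring 1 for LUX2 (1.10).

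**Figure D2:**
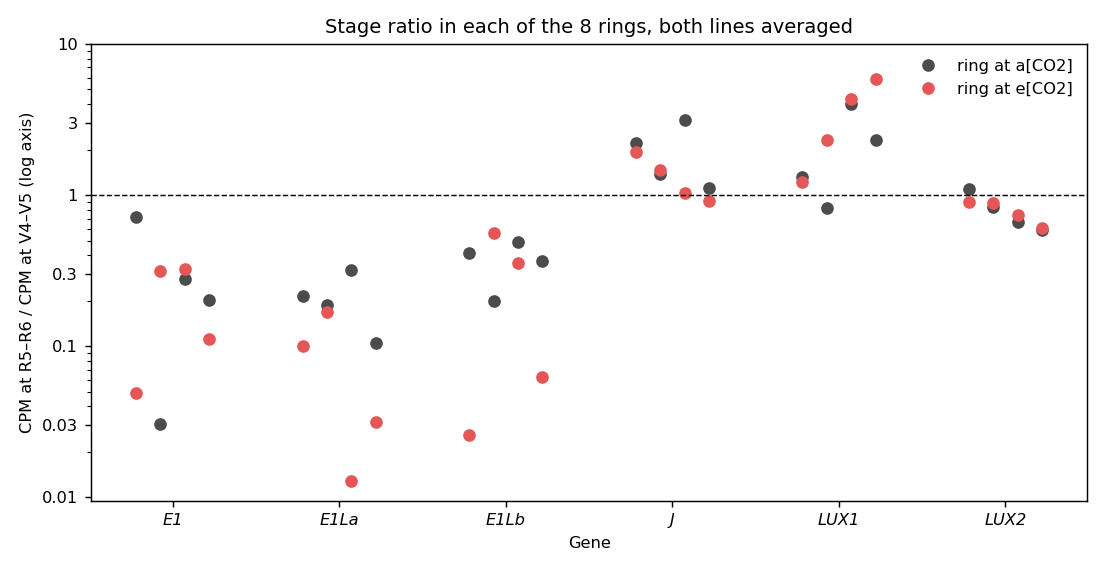
Ratio of CPM at R5–R6 to CPM at V4–V5 (log axis) for each gene in each of the 8 rings, both lines averaged, with rings at a[CO2] in grey and rings at e[CO2] in red. All points of E1, E1La and E1Lb lie below the dashed line at 1, the closest being E1 in ring 1 at 0.721, while J spans 0.913 to 3.12.

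Rings differed in their vegetative E1 family level. The summed CPM of E1, E1La and E1Lb at V4–V5 was highest in ring 3, at 3.74 in WT and 4.06 in VPZ-34A. It was lowest in ring 4 for WT, at 0.349 CPM from 6 counts, and in ring 1 for VPZ-34A, at 0.980 CPM from 15 counts. At R5–R6 the highest sum was 1.10 CPM in VPZ-34A of ring 5, above 2 of the V4–V5 libraries. The other 15 libraries at R5–R6 had 0.137 to 0.637 CPM.

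Within each library, the E1 family was also set against J, a ratio that no library scaling touches and that was chosen after seeing the data. The log2 ratio of the E1 family sum to J fell by 3.12 ± 0.714 (SD over 8 rings) from V4–V5 to R5–R6, with a fall in 8 of 8 rings.

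To see how the 3 E1 genes ranked, CPM was divided by the gene length in kilobases, which RefSeq (Glycine_max_v4.0) gives as 838 bp for E1 on chromosome 6 (20025257 to 20026094), 837 bp for E1La on chromosome 4 (35596555 to 35597391) and 845 bp for E1Lb on chromosome 4 (25156849 to 25157693). At V4–V5, E1La had 1.40 ± 0.756, E1 0.756 ± 0.363 and E1Lb 0.532 ± 0.239 CPM per kb (SD, n = 16 each). E1La was above E1 in 8 of 8 rings and above E1Lb in 8 of 8 rings (two-sided exact permutation within rings, p = 0.0078 for each), and E1 was above E1Lb in 6 of 8 (exact permutation p = 0.047). In single libraries, E1La was above E1 in 12 of 16 and above E1Lb in 16 of 16, and E1 was above E1Lb in 11 of 16. At R5–R6 the 3 genes had 0.161, 0.143 and 0.143 CPM per kb for E1La, E1 and E1Lb, and no order was detectable at this depth (exact permutation p = 0.73, 0.70 and 0.99 for the same pairs). Lengths of J, LUX1 and LUX2 were not used here, so their levels were not ranked against the E1 family.

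The stage comparison was next made within each group of line and CO2 level, with the spread estimated from all 32 libraries. E1La fell in all 4 groups. In WT at a[CO2] it had 0.738, 0.862, 0.291 and 2.28 CPM in rings 1, 2, 4 and 7 at V4–V5, and 0.147, 0.0924, 0.0604 and 0.204 CPM at R5–R6. In WT at e[CO2] it had 2.09, 1.16, 1.51 and 1.20 CPM in rings 3, 5, 6 and 8 at V4–V5, and 0.245, 0, 0 and 0.0228 CPM at R5–R6. The stages did not overlap in either WT group.

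In VPZ-34A at a[CO2], E1La had 0.457, 1.30, 0.425 and 0.768 CPM in rings 1, 2, 4 and 7 at V4–V5, and 0.112, 0.311, 0.167 and 0.119 CPM at R5–R6. In VPZ-34A at e[CO2] it had 2.23, 1.27, 1.49 and 0.635 CPM in rings 3, 5, 6 and 8 at V4–V5, and 0.189, 0.411, 0.0387 and 0.0352 CPM at R5–R6. Here too the stages did not overlap. The log2FC of E1La was −3.11 in WT at a[CO2], −4.34 in WT at e[CO2], −2.15 in VPZ-34A at a[CO2] and −3.10 in VPZ-34A at e[CO2] (edgeR adjusted p = 0.000852, 4.92e-05, 0.00867 and 0.000443). In WT at e[CO2] the fitted value was −8.08 without ring 3, where the other libraries at R5–R6 held 0, 0 and 0.5 counts, so that its size depended on the prior count.

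E1 also fell in each group, with a log2FC of −1.84 in WT at a[CO2], −3.17 in WT at e[CO2], −2.67 in VPZ-34A at a[CO2] and −2.24 in VPZ-34A at e[CO2] (edgeR adjusted p = 0.0314, 0.00198, 0.00256 and 0.00909). The smallest of these rested on WT at a[CO2], where E1 had 0.473, 0.934, 0 and 0.819 CPM in rings 1, 2, 4 and 7 at V4–V5, and 0.392, 0, 0.121 and 0.153 CPM at R5–R6. The stages overlapped in this group, because ring 4 had 0 E1 counts at V4–V5 and ring 1 had 8 counts at R5–R6. With the ring as a block, E1 in this group had a log2FC of −1.59 and an adjusted p of 0.0714. The call was also lost without ring 2 (−1.01, adjusted p = 0.332) and without ring 7 (−1.65, adjusted p = 0.0929), and in VPZ-34A at e[CO2] without ring 3 (−1.88, adjusted p = 0.0628) and without ring 8 (−1.97, adjusted p = 0.0665).

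E1Lb fell in 3 of 4 groups. It had a log2FC of −1.81, −2.79 and −1.98 in WT at a[CO2], WT at e[CO2] and VPZ-34A at e[CO2], and of −1.20 in VPZ-34A at a[CO2], which did not pass (edgeR adjusted p = 0.112). Its call was lost in WT at a[CO2] without any 1 of rings 1, 2 and 7 (adjusted p = 0.0946, 0.125 and 0.0827) and in VPZ-34A at e[CO2] without ring 3 or 8 (0.0682 and 0.0501), where it was −3.37 without ring 5. Among the evening complex genes, J rose in VPZ-34A at a[CO2], and LUX1 rose in WT at e[CO2]. J in VPZ-34A at a[CO2] had 3.59, 4.23, 2.23 and 4.08 CPM in rings 1, 2, 4 and 7 at V4–V5, and 12.3, 6.23, 8.91 and 3.15 CPM at R5–R6, with ring 7 alone lower at R5–R6. Its log2FC was 1.10 there (edgeR adjusted p = 0.0059), and 0.30 to 0.63 in the other groups, none past the threshold. Without ring 1 it was 0.79 (adjusted p = 0.0787) and without ring 4 it was 0.85 (adjusted p = 0.071), and the call was lost.

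LUX1 in WT at e[CO2] had 0.321, 0.183, 0.112 and 0.0453 CPM in rings 3, 5, 6 and 8 at V4–V5, and 0.409, 0.457, 0.773 and 0.501 CPM at R5–R6, without overlap. Its log2FC was 1.69 (edgeR adjusted p = 0.00713), against 1.09, 0.26 and 0.89 in WT at a[CO2], VPZ-34A at a[CO2] and VPZ-34A at e[CO2], which did not pass (adjusted p = 0.0557, 0.670 and 0.112). The LUX1 call in WT at e[CO2] was lost without ring 6 (log2FC 1.33, adjusted p = 0.081) and without ring 8 (1.37, adjusted p = 0.0522). In all, 3, 4, 3 and 3 of 6 members passed in WT at a[CO2], WT at e[CO2], VPZ-34A at a[CO2] and VPZ-34A at e[CO2], where 48.4%, 49.4%, 54.4% and 51.6% of all genes passed. The count dropped to 1 in WT at a[CO2] without ring 2 or without ring 7, and to 1 in VPZ-34A at e[CO2] without ring 3 or without ring 8.

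These differences between groups did not themselves pass a test. For the difference of the stage effect between the lines, 0 of 6 members passed in edgeR and 0 had an unadjusted p under 0.05, and the percentage over all genes was 0%, with 1932 of 35639 genes under an unadjusted p of 0.05. The same held between the CO2 levels, with 0 of 6 members, 0 at an unadjusted p under 0.05 (2 in limma-voom), and 0% of genes, although 2606 had an unadjusted p under 0.05. With all libraries, the largest member difference was that of E1La, whose fall was 1.10 smaller on the log2 scale in VPZ-34A than in WT (95% interval −0.43 to 2.64, edgeR adjusted p = 0.917). This value was 3.08 without ring 3 and 0.49 without ring 5, and it did not pass in any of 15 alternatives.

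**Figure D3:**
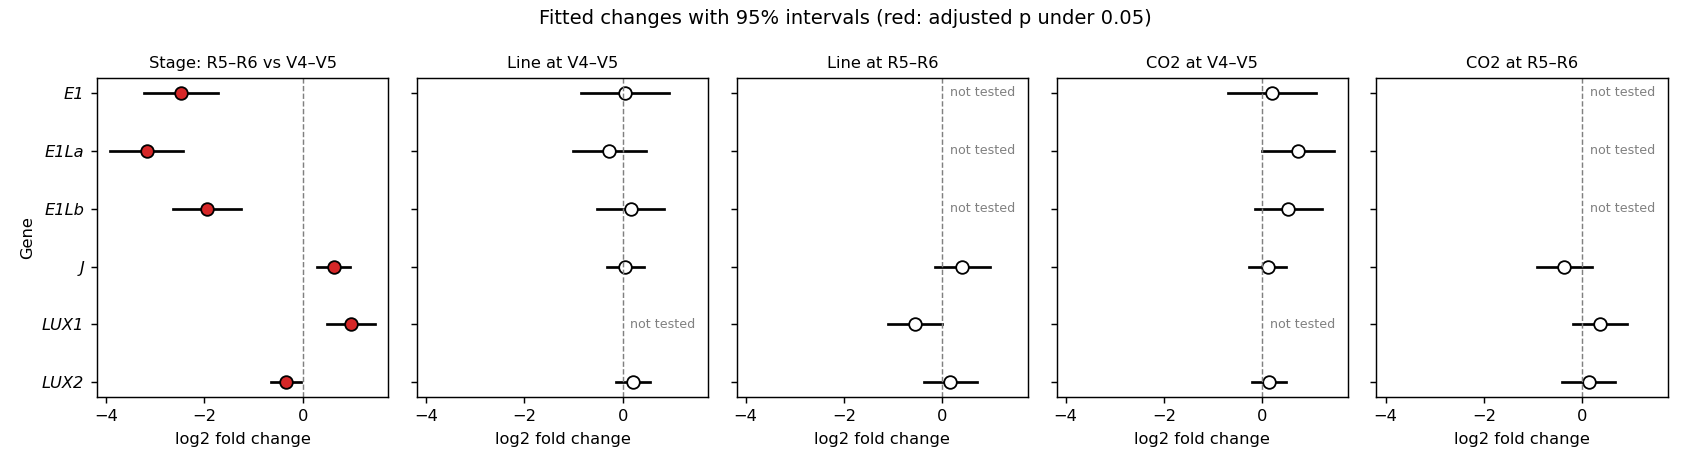
Fitted log2 fold change (horizontal axis) of each gene for stage (R5–R6 against V4–V5), line (VPZ-34A against WT) and CO2 (e[CO2] against a[CO2]), with bars for the 95% interval and red points for an edgeR adjusted p under 0.05. Red points are confined to the stage panel, from −3.17 for E1La to 0.98 for LUX1, and genes that did not pass the count filter at a stage are marked as not tested.

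The line comparison asked whether the transgenes of VPZ-34A came with a different level of the 6 genes at the same stage. No member passed at either stage. At V4–V5, 0 of 5 members tested passed, beside 0.0653% of the 33689 genes tested, and 0 had an unadjusted p under 0.05 in edgeR (LUX1 did not pass the filter on low counts). Summed over the E1 family, the 8 WT libraries had 0.349 to 3.74 CPM and the 8 VPZ-34A libraries 0.980 to 4.06 CPM, so that the lines overlapped. The log2FC of VPZ-34A against WT ran from −0.27 for E1La (95% interval −1.01 to 0.47) to 0.21 for LUX2 (95% interval −0.14 to 0.56), and that of E1 was 0.06 (95% interval −0.84 to 0.95).

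At R5–R6, 0 of 3 members tested passed, beside 0.0904% of 33200 genes, and 1 had an unadjusted p under 0.05. This was LUX1, with 0.343 to 0.773 CPM (median 0.493) in the 8 WT libraries and 0.104 to 0.519 CPM (median 0.371) in the 8 VPZ-34A libraries. Its log2FC was −0.56 (95% interval −1.11 to −0.02, edgeR unadjusted p = 0.0441, adjusted p = 0.654), 6 of 8 rings had less of it in VPZ-34A, and the exact permutation within rings gave p = 0.07. J had 2.92 to 6.15 CPM (median 4.73) in WT and 3.14 to 12.3 CPM (median 6.38) in VPZ-34A, with a log2FC of 0.40 (95% interval −0.15 to 0.96, edgeR adjusted p = 0.734). LUX2 had a log2FC of 0.16 (edgeR adjusted p = 0.893).

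E1, E1La and E1Lb had too few counts at R5–R6 to pass the filter there. Without the filter, their log2FC between the lines was 0.11, 0.85 and 0.89 (edgeR adjusted p = 1, 0.843 and 0.820), and between the CO2 levels −0.26, −0.40 and −0.36 (adjusted p = 0.951, 0.902 and 0.911). In one model of all 32 libraries their log2FC between the lines at R5–R6 was 0.12, 0.83 and 0.88 (edgeR adjusted p = 0.973, 0.696 and 0.634), with 95% intervals of −1.13 to 1.37, −0.46 to 2.12 and −0.26 to 2.02. A difference of this size between the lines was not detectable at this depth.

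Of 12 quantities compared between the lines at R5–R6, the share of LUX counts that belonged to LUX1 had the most regular difference over rings. The ranges of this share in WT and VPZ-34A overlapped. This share was picked after its values were seen and is given without a test, and since the gene lengths were not used, it is read only across libraries. In WT it was 20% to 34.4% (median 26.5%, mean 26.8 ± 6.24%, SD, n = 8), and in VPZ-34A 5.56% to 26.5% (median 18.7%, mean 18.9 ± 7.26%, SD, n = 8). In 8 of 8 rings VPZ-34A had the lower share, with a difference of −7.90 percentage points on average, although in ring 5 the lines had 20.5% and 20.4%.

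At V4–V5 the LUX1 share was 9.94 ± 4.43% in WT and 9.74 ± 4.39% in VPZ-34A (SD, n = 8 each), and VPZ-34A had the lower share in 4 of 8 rings and the higher share in 3. Whether the line difference changed with stage was not tested. Over both lines the share rose by 13.03 points from V4–V5 to R5–R6, in 7 of 8 rings. The share was built on 1 to 28 LUX1 counts per library.

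**Figure D4:**
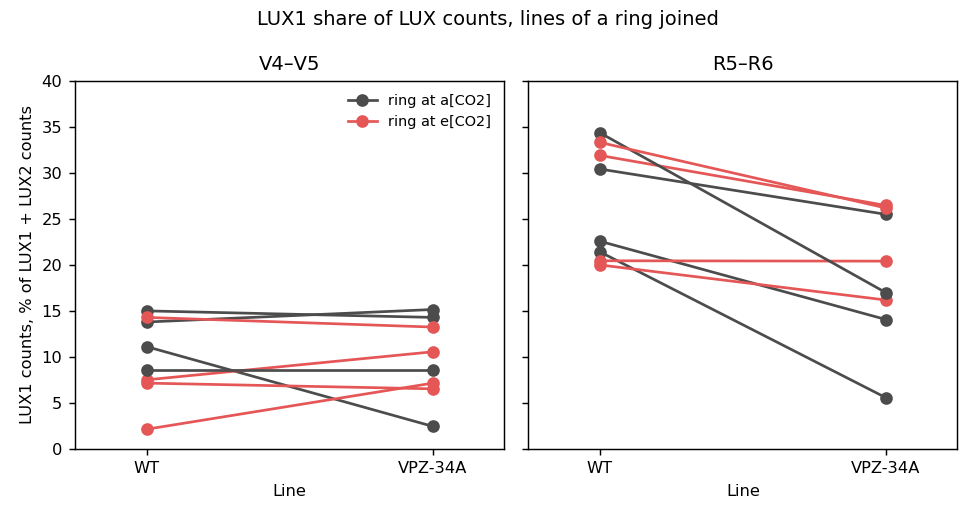
LUX1 counts as a percentage of LUX1 plus LUX2 counts (vertical axis) in WT and VPZ-34A at V4–V5 (left) and R5–R6 (right), with the lines of a ring joined and rings coloured by CO2 level. At R5–R6 each of the 8 joined lines runs downward from WT to VPZ-34A, from a mean of 26.8% to 18.9%, and at V4–V5 they run both ways.

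The CO2 comparison asked whether growth at e[CO2] came with a different level of the 6 genes. No member passed. At V4–V5, 0 of 5 members tested passed in edgeR and 0 had an unadjusted p under 0.05 (1 each in limma-voom and DESeq2), beside 0.199% of 33689 genes. E1La came nearest, with 0.291 to 2.28 CPM (median 0.753) in the 8 libraries at a[CO2] and 0.635 to 2.23 CPM (median 1.38) in the 8 at e[CO2]. The ranges overlapped, and 4 of 4 rings at e[CO2] were above the mean of the a[CO2] rings. Its log2FC was 0.73 (95% interval −0.01 to 1.47, edgeR adjusted p = 0.477), and the exact permutation of 4 against 4 rings, which cannot go below 0.029, gave p = 0.17.

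E1Lb had a log2FC of 0.53 (95% interval −0.16 to 1.21, edgeR adjusted p = 0.605) at V4–V5, and E1 of 0.19 (95% interval −0.71 to 1.08). J and LUX2 stood at 0.11 and 0.13, with 95% intervals of −0.27 to 0.48 and −0.22 to 0.48. The edgeR fits of CO2 at both stages took the lines of a ring as independent, so their intervals can be too narrow. Over ring means at V4–V5, the exact permutation gave p = 0.29 for E1Lb, 0.40 for E1, 0.74 for J and 0.49 for LUX2.

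At R5–R6, 0 of 3 members tested passed and 0 had an unadjusted p under 0.05 in edgeR, beside 0% of 33200 genes (4466 under an unadjusted p of 0.05, and 619 called by DESeq2). LUX1 had 0.104 to 0.564 CPM (median 0.379) at a[CO2] and 0.349 to 0.773 CPM (median 0.457) at e[CO2], with a log2FC of 0.37 (95% interval −0.18 to 0.91, edgeR adjusted p = 0.567) and an exact permutation p of 0.057. J had a log2FC of −0.37 (95% interval −0.92 to 0.19, edgeR adjusted p = 0.569), and LUX2 of 0.13.

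The interaction of line and CO2 was called for 0 of 5 members at V4–V5 and 0 of 3 at R5–R6, with 0 at an unadjusted p under 0.05 at either stage in edgeR, and for 0% of all genes at both stages (549 and 801 genes under an unadjusted p of 0.05, and 1 gene at each stage called by DESeq2). In these comparisons limma-voom and DESeq2 called 0 members too.

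Of 27 other identifiers chosen as photoperiod flowering genes (circadian clock, phytochrome, CONSTANS-like and FLOWERING LOCUS T genes), 26 were in the table and 23 were tested for stage. At R5–R6, 12 rose, 5 fell and 6 did not pass, so that 17 of 23 passed beside 75.2% of all genes, a share near the background. The list had a median log2FC of 0.57, and all genes one of 0.01. Glyma.02G069500, the florigen-family gene FT2c, had 0.487 to 4.83 CPM (median 1.90) at V4–V5, reached 3.52 to 17.04 CPM (median 7.67) at R5–R6, and was higher at R5–R6 in 8 of 8 rings. Its log2FC was 2.13 (SE 0.220, edgeR adjusted p = 8.79e-10), opposite in direction to the E1 family.

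The pair with the largest rise was nearly silent at V4–V5. Glyma.19G108100 had 1 count in all 16 libraries at V4–V5 and 13.6 to 85.1 CPM at R5–R6, and Glyma.16G044200 had 17 counts in all at V4–V5 and 32.8 to 75.3 CPM at R5–R6. Of those that fell, Glyma.20G090000 went from 101 ± 11.3 to 49.5 ± 10.1 CPM and Glyma.08G255200 from 93.5 ± 9.97 to 55.8 ± 25.6 CPM (SD, n = 16 each), with log2FC of −1.03 and −0.78. No gene of the list passed for line, CO2 or their interaction, in 19 tested at V4–V5 and 23 at R5–R6. FT2c had 0.487 to 3.14 CPM in WT and 1.55 to 4.83 CPM in VPZ-34A at V4–V5, with a log2FC of 1.28 (edgeR unadjusted p = 0.00282, adjusted p = 1), and of 0.76 at R5–R6 (adjusted p = 0.483). The paper, which removed block effects and used limma, did call FT2c as higher in VPZ-34A at V4–V5, under a relaxed fold-change threshold. The 2 analyses thus differ on this call.

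How far the 6 genes varied together was described by Pearson's r of log2 CPM over the 32 libraries after the mean of each stage was removed. Libraries share rings, and genes share library depth, so r is given without a p. Among the E1 family r was 0.559 for E1 and E1Lb, 0.426 for E1La and E1Lb, where shared reads also enter, and 0.321 for E1 and E1La. J and LUX2 had r = 0.532, LUX1 and LUX2 0.195, J and LUX1 0.095, and E1 and J 0.00461. Of the other genes tested, the most like J was Glyma.09G255400 (r = 0.829), and the most like E1La was Glyma.16G133800 (r = 0.761).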

How the data were processed

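Single-end reads from stranded polyA libraries of leaf tissue, pooled from 3 plants per plot, were processed by the authors. Per the labels and the methods of the study, they were trimmed with Trimmomatic 0.39, aligned with STAR 2.7.10a to Wm82.a4.v1 with the 3 transgenes added, and counted with featureCounts of Subread 2.0.4. The deposited values are estimated counts without normalisation, since reads with several alignments were assigned as fractions, and 32.6% of nonzero values were not whole, which matters most for near-identical copies.

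Counts were rounded, filtered with filterByExpr, scaled by TMM and tested by quasi-likelihood F-tests (edgeR 4.0.16, R 4.3.3). Stage effects used all 32 libraries with a mean for each of the 8 groups. Line, CO2 and interaction effects used the 16 libraries of a stage. P-values were adjusted by Benjamini-Hochberg over all genes tested for an effect, and genes were called at an adjusted p under 0.05. Permutation tests of stage, line and CO2 used ring means of log2 CPM with a prior count of 2, or of ratios and shares, and 60 such tests were run for the 6 genes, their sums and their ratios. The 6 tests that rank E1, E1La and E1Lb used ring means of CPM per kb. These p-values are not adjusted for the number of tests.

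The R number in each sample title was read as a ring, that is a shared field plot that pairs the lines. The labels do not spell this out. The median correlation between the deviations of WT and VPZ-34A was 0.187 for the same ring and −0.0654 for different rings in V4–V5 leaves. In R5–R6 leaves, these were 0.297 and −0.147. Single rings ran from −0.0975 to 0.361 at V4–V5 and from −0.0234 to 0.571 at R5–R6. Deviations were taken from the mean of each group of 4. Where same-ring values are above 0, this alone pushes values for different rings below 0. Each ring had 1 CO2 level, so a fixed ring block leaves CO2 untested and a random block in limma-voom was used for it. Chi-square per gene was 9.12 to 154 for the 48 pairs of replicates, so none was counted as a copy. Replicates were rings of 1 field and season.

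Named genes were the 6 members, and from the list of 27 photoperiod genes those called for line, CO2 or interaction and up to 10 with the largest stage change, of which 2 in each direction and FT2c are given, since the reference table pairs no names with these identifiers. The 3 genes most like each member were found, and 2 are printed. The members and lists were chosen with earlier results of these data known. RefSeq positions matched 3 of 6 members by symbol. No sequence of the members was used here. The alternatives tried were DESeq2 1.42.0, limma-voom (limma 3.58.1), RLE scaling, a model of both stages, no filter on low counts or a minimum of 10 in each library, ring blocks, summed paralogs and leaving out each ring. The edgeR tests were tried on simulated counts. Changes were placed only in genes with higher mean counts than the E1 family, LUX1 and LUX2, and no ring effect was simulated. That check therefore does not cover genes with counts as low as these.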

Additional observations from a re-analysis of the deposited data

Results flagged for a closer look

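In 48 groups of 4 libraries, 1 for each gene and group, the gap of the highest or lowest library to the nearest other was set against the range of the group, and it passed Dixon's critical value of 0.829 in 4. Chance flags about 1 group in 20. E1 in WT at e[CO2] at R5–R6 had 0 CPM in ring 3, with the others at 0.0911 to 0.103 CPM. E1La in the same library had 0.245 CPM from 6 counts, with the others at 0 to 0.0228 CPM, so that this library was low for one paralog and high for another. E1Lb in WT at a[CO2] had 0.0581 CPM from 1 count in ring 4 at V4–V5, with the others at 0.468 to 0.527 CPM. The same library had 0 E1 counts and the lowest E1La level of V4–V5. E1Lb in WT at a[CO2] at R5–R6 had 0.139 CPM in ring 2 from 3 counts, with the others at 0.0980 to 0.102 CPM. Except for the V4–V5 library of ring 4, each of these groups held no more than 6 counts of the gene in any library.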

How the results depend on the processing

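The stage changes of E1 (log2FC −2.74 to −2.20), E1La (−4.05 to −2.63), E1Lb (−2.70 to −1.69), J (0.52 to 0.73) and LUX1 (0.80 to 1.23) kept their direction and passed the threshold in every alternative that tested them. For the E1 genes, these alternatives included the summed paralogs. The end at −2.63 for E1La was the sum of E1, E1La and E1Lb. The end at −2.70 for E1Lb was the sum of E1La and E1Lb. Neither end was therefore a fit of that gene alone. LUX2 ranged from −0.42 to −0.26 and passed in 7 of 14 alternatives. A minimum of 10 counts in every library left 2 members to test for stage, J and LUX2, and 2 passed, while within the groups 0 passed in WT at a[CO2], 0 in WT at e[CO2], 1 in VPZ-34A at a[CO2] and 0 in VPZ-34A at e[CO2]. In WT at a[CO2], limma-voom called 1 member. With each ring left out, 1 to 4 members passed in WT at a[CO2] and 1 to 3 in VPZ-34A at e[CO2]. With a fixed replicate block for the ring, the stage log2FC was −2.40 for E1, −3.13 for E1La, −1.93 for E1Lb, 0.59 for J, 1.03 for LUX1 and −0.36 for LUX2, and 6 of 6 passed. The block changed no other call of a member than that of E1 in WT at a[CO2]. Its CO2 counterpart, a random block, called 0 members.

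Directions reversed only where no call was made. These were, for the stage effect between lines, E1 with the replicate block (−0.062). Between CO2 levels they were LUX2 without the filter (−0.0030) and with the replicate block (−0.0070). For the line effect at V4–V5 they were E1 and E1Lb in the sum of the family (−0.080) and E1Lb summed with E1La (−0.16), and at R5–R6 LUX2 in limma-voom (−0.0024). For the interaction at V4–V5 it was E1 in the sum (0.30). With each ring left out, the sign also turned for LUX1 within VPZ-34A at a[CO2] (stage log2FC −0.26 to 0.90). It turned for the stage effect between lines of E1 (−0.26 to 0.33) and LUX2 (−0.24 to 0.12), and between CO2 levels of E1 (−0.97 to 0.063) and LUX2 (−0.10 to 0.17). Line effects at V4–V5 ran from −0.11 to 0.23 for E1, −0.51 to 0.051 for E1La, −0.013 to 0.28 for E1Lb and −0.029 to 0.19 for J, and at R5–R6 from −0.014 to 0.27 for LUX2. CO2 effects ran from −0.017 to 0.45 for E1 and −0.033 to 0.19 for J at V4–V5, and from −0.065 to 0.29 for LUX2 at R5–R6. The interaction ran from −0.41 to 0.26 for E1, −0.27 to 0.84 for E1La and −0.24 to 0.18 for J at V4–V5, and from −0.45 to 0.22 for LUX2 at R5–R6.

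Counts over all genes moved more than those of the members. For line, edgeR called 22 genes at the vegetative stage and 30 at R5–R6, against 42 and 121 by DESeq2, and 6 and 9 with the minimum of 10 counts. One model of both stages called 69 for line at R5–R6. For CO2 at V4–V5, 67 genes were called, 473 by DESeq2, 24 with the random block and 7 in one model. For CO2 at R5–R6, 0 were called by edgeR, 619 by DESeq2, 258 in one model, 518 without ring 7 and 187 without ring 3. The difference of the stage effect between CO2 levels was called for 0 genes by edgeR, 31 by DESeq2 and 39 without ring 7, and between the lines for 0, with 6 by DESeq2 and 1 by limma-voom. Leaving out a ring gave 15 to 78 genes for CO2 at V4–V5 and 15 to 40 for line at R5–R6. Depth limited E1, E1La and E1Lb at R5–R6, where they passed the test for line or CO2 neither without the filter nor in one model of both stages.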
